A study of Mus musculus with 241 samples.

Results

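Glycolysis and lactate metabolism in early mouse thymocytes was described through 32 genes, all of which had a row in the bulk table of 24506 genes, in the C1 single-cell table of 43346 genes and in the 10x gene list of 27998 genes. The genes were chosen by name and cover glucose uptake (Slc2a1, Slc2a3), the enzymes of glycolysis and their isozymes (Hk1, Hk2, Hk3, Gpi1, Pfkl, Pfkm, Pfkp, Aldoa, Aldoc, Tpi1, Gapdh, Pgk1, Pgam1, Bpgm, Eno1, Eno2, Eno3, Pkm), the PFKFB enzymes that set fructose-2,6-bisphosphate (Pfkfb1, Pfkfb2, Pfkfb3, Pfkfb4), lactate dehydrogenase and lactate transport (Ldha, Ldhb, Slc16a1, Slc16a3), and the step from pyruvate to the mitochondrion (Pdk1, Pdk2, Pdk3, Pdha1). The bulk libraries came from thymocytes of C57BL/6 mice with the Bcl11byfp/yfp reporter, an allele that every bulk population carried, sorted as Lin-, 7AAD-, CD44+ and Kit+. They comprised 3 Bcl11b+ DN2a (CD25+ YFP+) and 3 Bcl11b- DN2a (CD25+ YFP-) libraries, and 2 Flt3- ETP, 2 Flt3+ ETP and 2 total ETP libraries (all CD25-). ETP, the early thymic progenitor, is the first stage with high Kit, and DN2a is the stage that follows it, in which CD25 appears and Bcl11b is first switched on. The 10x data (2 libraries) and the C1 data (cells of the Fluidigm C1 system, treated as 1 sample) came from wild-type C57BL/6 thymocytes with the same Lin-, 7AAD-, CD44+ and Kit+ sort, without a CD25 gate.

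Glycolysis splits glucose into pyruvate in the cytosol. Hexokinase traps glucose in the cell, phosphofructokinase-1 commits it, and the PFKFB enzymes make or remove the activator of phosphofructokinase-1. Lactate dehydrogenase turns pyruvate into lactate, which monocarboxylate transporters such as Slc16a1 (MCT1) and Slc16a3 (MCT4) carry across the membrane, while the PDK kinases switch off pyruvate dehydrogenase, whose catalytic subunit is Pdha1. Several steps are served by isozymes with different tissue distributions: Hk3 is known from myeloid cells, Eno2 from neurons, Eno3 and Pfkm from muscle, and Ldhb from oxidative tissues. Proliferating thymocytes and activated T cells are known for high glycolytic flux.

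The stage genes followed the sort. Il2ra, which encodes CD25, was at 183.6 to 301 FPKM in the DN2a libraries and at 1.0 to 18.4 FPKM in the ETP libraries, and Bcl11b was at 41.02, 44.3 and 16.1 FPKM in Bcl11b+ DN2a, against 6.1, 3.1 and 0.6 FPKM in Bcl11b- DN2a. Flt3+ ETP replicate 1 and Flt3- ETP replicate 1 stood apart from the other ETP libraries, with Bcl11b at 5.8 and 4.5 FPKM and summed later T-cell markers (9 genes in the table) at 108.2 and 80.8 FPKM. Reads on gene models were 21206645 to 38537078 per library. Kits also differed: 8 libraries were made with NEBNext Ultra, and 4 (Flt3+ ETP replicate 2, Flt3- ETP replicate 2 and replicate 3 of each DN2a population) with SMART-Seq v4, so kit was a term of every bulk fit. Values below are listed in replicate order, so that the last value of each Flt3-sorted ETP and DN2a population is the SMART-Seq one. The labels do not say which replicates came from separate mice, and the p-values speak only to the spread among these libraries. In bulk RNA, fewer cells of a type and less RNA per cell cannot be told apart.

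The promoter windows of 4 genes whose transcripts differ between stages below, Ldha, Slc16a1, Pfkfb3 and Eno1, are shown as windows with and without the letters ACGTG. Each window runs from 250 bases before to 50 bases after the RefSeq start in GRCm38.p6, 5′ to 3′ on the gene's strand, with ACGTG on either strand in capitals; an overlapping pair of matches reads CACGTG. The regions are chr7:46845554-46845853 (+) for Ldha, chr3:104638414-104638713 (+) for Slc16a1, chr2:11553880-11554179 (-) for Pfkfb3 and chr4:150236947-150237246 (+) for Eno1.
Ldha: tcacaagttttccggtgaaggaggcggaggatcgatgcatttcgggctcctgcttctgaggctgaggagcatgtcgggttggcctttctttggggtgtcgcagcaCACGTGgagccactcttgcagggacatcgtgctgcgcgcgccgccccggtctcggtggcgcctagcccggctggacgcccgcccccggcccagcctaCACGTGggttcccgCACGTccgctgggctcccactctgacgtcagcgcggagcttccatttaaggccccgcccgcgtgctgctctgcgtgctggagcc
Slc16a1: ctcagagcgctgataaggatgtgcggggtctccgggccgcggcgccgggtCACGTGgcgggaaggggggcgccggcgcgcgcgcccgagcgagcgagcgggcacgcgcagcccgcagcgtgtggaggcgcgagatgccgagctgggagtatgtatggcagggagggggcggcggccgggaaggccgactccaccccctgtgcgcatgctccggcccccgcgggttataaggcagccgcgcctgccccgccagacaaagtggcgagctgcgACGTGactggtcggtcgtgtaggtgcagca
Pfkfb3: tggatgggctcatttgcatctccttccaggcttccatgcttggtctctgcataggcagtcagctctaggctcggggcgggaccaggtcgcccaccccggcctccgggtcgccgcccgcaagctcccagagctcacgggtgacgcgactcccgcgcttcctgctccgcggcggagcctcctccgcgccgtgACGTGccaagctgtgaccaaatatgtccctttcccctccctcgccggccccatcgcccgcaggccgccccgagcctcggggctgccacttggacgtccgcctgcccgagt
Eno1: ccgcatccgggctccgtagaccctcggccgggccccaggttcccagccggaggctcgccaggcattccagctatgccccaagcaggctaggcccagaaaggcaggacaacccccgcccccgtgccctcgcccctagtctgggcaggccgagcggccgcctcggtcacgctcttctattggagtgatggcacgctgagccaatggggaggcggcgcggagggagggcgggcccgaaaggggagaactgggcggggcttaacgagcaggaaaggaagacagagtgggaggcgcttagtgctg
The Ldha window held 5 matches, the Slc16a1 window 3, the Pfkfb3 window 1 and the Eno1 window 0. A RefSeq window was at hand for 31 of the 32 genes (not Slc2a3). Where a gene had several, only the window nearest the start of its bulk gene model was used. Eno1 and Aldoa had 3 windows each, and Ldha and Pfkfb3 had 2 each. ACGTG stood in 16 of these 31 (51.6%), against 19.6% of all 32851 RefSeq promoter windows of the same length, and CACGTG, its palindromic extension, in 4 of 31 (12.9%), against 7.15%. ACGTG is the core of the hypoxia response element and CACGTG the E-box read by Myc-family proteins; a match is a run of letters and not a binding site. Of the genes called by limma below, Slc2a1, which fell, had 1 match in the window used, and Eno1 and Pkm, which also fell, had 0. Of those that rose, Ldha had 5, Hk1 had 2, Pfkfb3 had 1, and Aldoa and Ldhb had 0. A link between the letters and direction was not tested.

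Aldolase and the enzymes below it in the pathway were the most abundant of the 32 transcripts. Ldha, which makes the muscle-type lactate dehydrogenase subunit, had the highest mean over the 5 populations (361 FPKM), followed by Pkm (pyruvate kinase, 241.1 FPKM), Aldoa (aldolase, 188.7 FPKM), Pgk1 (phosphoglycerate kinase, 171.6 FPKM), Tpi1 (triose phosphate isomerase, 157.6 FPKM) and Gapdh (144.6 FPKM). Eno1, Pgam1 and Gpi1, the enolase, phosphoglycerate mutase and glucose-6-phosphate isomerase, averaged 124.3, 118.4 and 106.4 FPKM. FPKM is scaled to gene length, so these levels can be set against each other. The first place rested on the kit: Ldha was above Pkm in 4 of 8 NEBNext libraries and in 4 of 4 SMART-Seq libraries. Ranges of neighbours in this order overlapped across libraries: Ldha spanned 154.9 to 779 FPKM and Pkm 161.6 to 376 FPKM.

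At the other end, Hk3 averaged 1.30 FPKM, Pfkfb1 1.09 FPKM, Slc16a3 1.04 FPKM and Eno2 0.192 FPKM. In all, 13 of the 32 genes were above 10 FPKM in every library, 5 were above 100 FPKM in every library, and 1, the neuronal enolase Eno2, stayed under 1 FPKM in all 12. Between these ends, Pfkl averaged 29.5 FPKM, Pdk3 27.3 FPKM, Slc16a1 20.6 FPKM and Pdk1 19.8 FPKM.

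**Figure D1:**
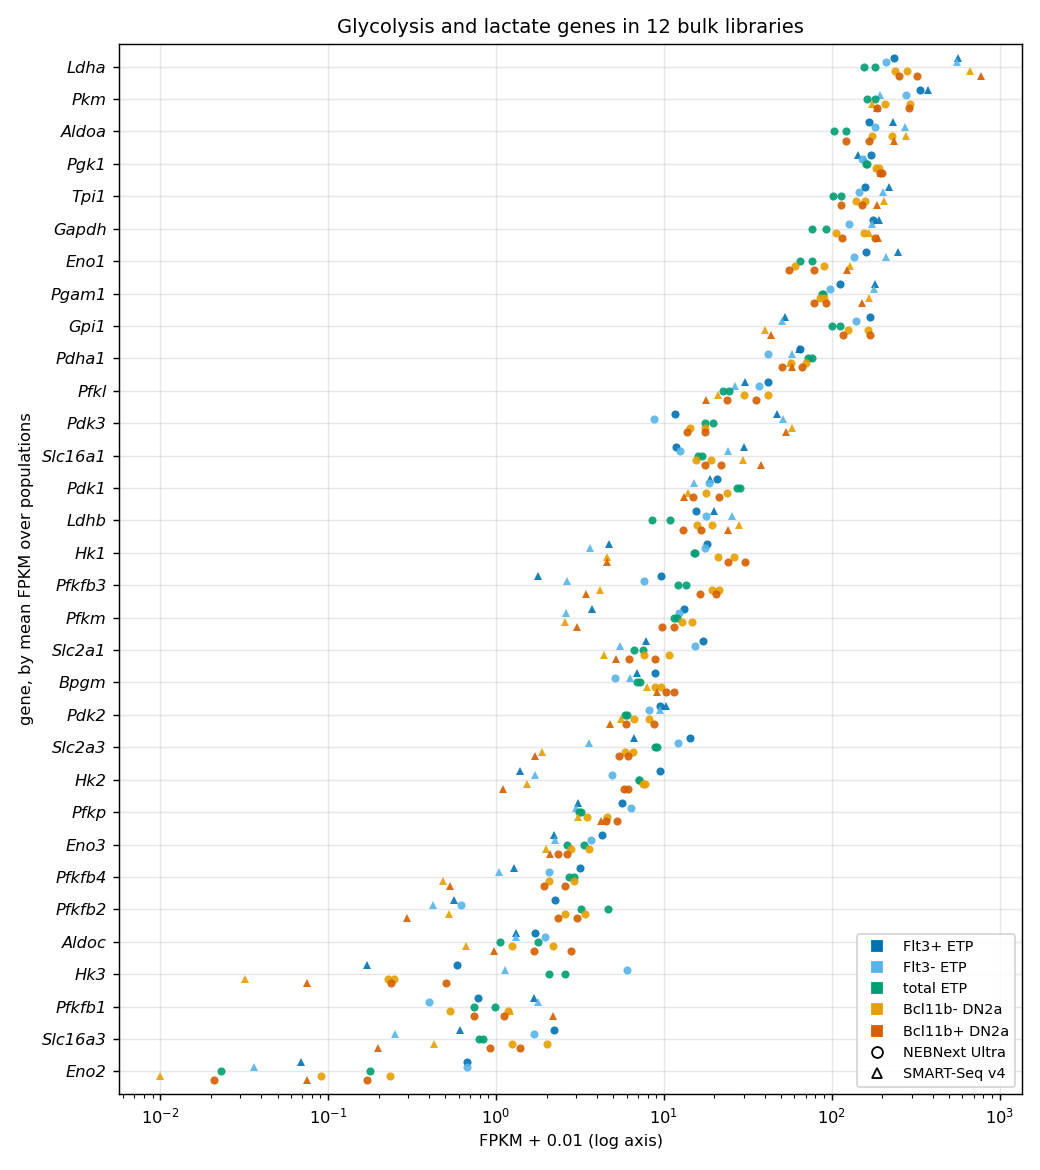
FPKM of each of the 32 genes on a log axis, with 1 point per bulk library and marks by population, ordered by the mean over populations. Ldha, Pkm and Aldoa stand at the top and Eno2 at the bottom, under 1 FPKM in every library.

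Several of these levels differed more between kits than between populations. Gpi1 was at 100.9 to 170.04 FPKM in the 8 NEBNext libraries and at 39.8 to 52.3 FPKM in the 4 SMART-Seq libraries, ranges that do not overlap. Hk1 showed the same split, with 15.2 to 30.3 FPKM in NEBNext and 3.62 to 4.69 FPKM in SMART-Seq libraries. Ldha ran the other way, at 154.9 to 321 FPKM in NEBNext and 558 to 779 FPKM in SMART-Seq libraries. Levels were therefore compared between populations within a kit, or with kit as a term.

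Within each isozyme family, 1 gene usually supplied most of the transcript. Aldoa made up 98.4% to 99.8% of aldolase FPKM, Eno1 94.8% to 99.1% of enolase FPKM, Ldha 92.2% to 96.99% of lactate dehydrogenase FPKM and Slc16a1 84.2% to 99.5% of FPKM of the 2 monocarboxylate transporters. Pfkl, the liver-type subunit of phosphofructokinase-1, held 60.7% to 82.6% of its family in every library. The 2 glucose transporters were nearer to parity, Slc2a1 (GLUT1) holding 42.7% to 75.4% and Slc2a3 (GLUT3) the rest.

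Hexokinase shares differed by population. Hk1, the widely expressed mitochondrial hexokinase, held 56.2% to 82.2% of hexokinase FPKM and Hk2, the inducible form, 16.5% to 33.5%. Hk3 held 0.359% to 1.35% in the 6 DN2a libraries, against 21.1% and 17.3% in Flt3- ETP, 10.3% and 8.5% in total ETP and 2.0% and 2.6% in Flt3+ ETP. No DN2a library reached the share of any ETP library. Shares within the PDK family split by kit instead: Pdk1 held 40.1% to 54.5% in NEBNext libraries and 17.99% to 24.8% in SMART-Seq libraries, and Pdk3 24.6% to 39.2% and 61.7% to 74.97%.

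**Figure D2:**
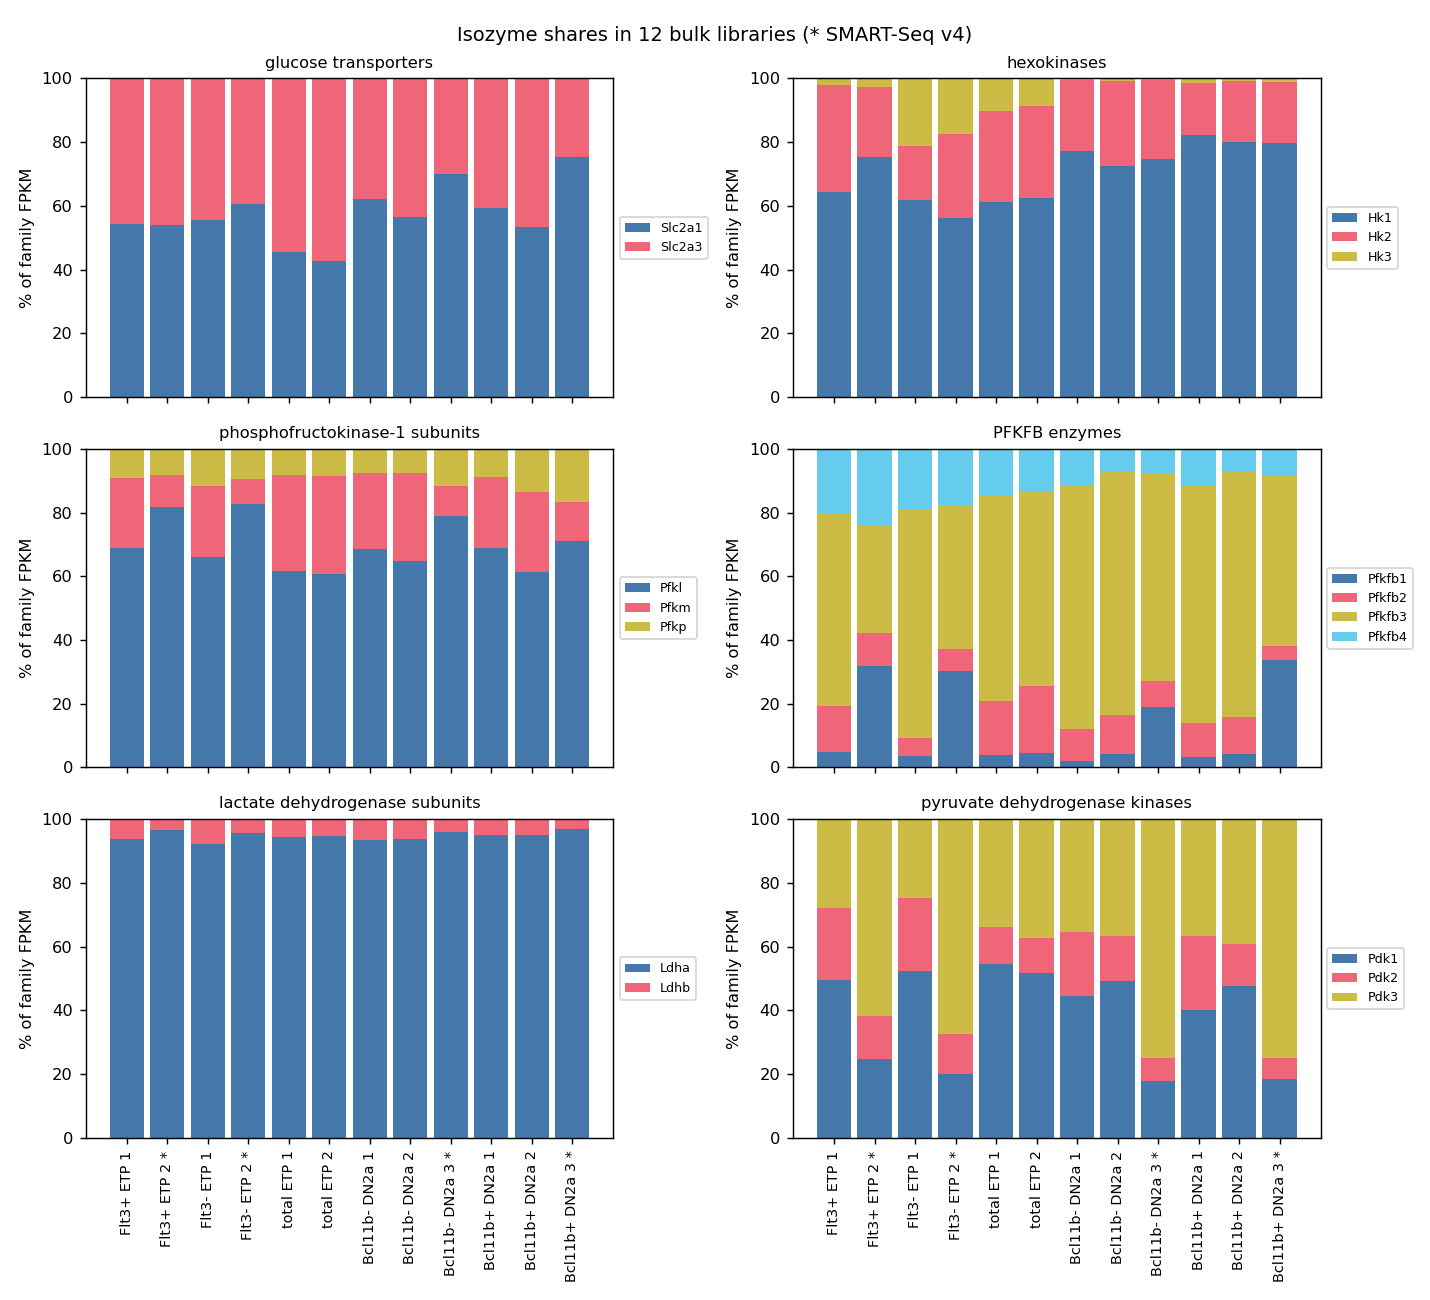
Share of each isozyme in its family's summed FPKM (%, y axis) in the 12 bulk libraries (x axis, * marks SMART-Seq v4), for 6 families in panels. Hk3 is visible in Flt3- ETP and total ETP bars, and the Pdk1 and Pdk3 shares change place between kits.

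The 10x libraries gave the same leading isozyme as bulk RNA for the aldolases (Aldoa 98.2% and 98.7% of family UMIs over all kept cells of libraries 1 and 2), enolases (Eno1 95.1% and 95.6%), lactate dehydrogenases (Ldha 92.99% and 92.5%), monocarboxylate transporters (Slc16a1 97.2% and 94.8%) and phosphofructokinases (Pfkl 74.1% and 73.4%). Hexokinases had another order, with Hk2 at 62.8% and 51.6% and Hk1 at 35.96% and 47.8% of hexokinase UMIs, whereas Hk1 led in all 12 bulk libraries. The glucose transporters also changed order, with Slc2a1 at 44.7% and 36.6%. UMI counts are not scaled to gene length, and bulk shares are, so the order was not tested between the assays. Pgk1 was among the 4 most abundant of these genes in bulk RNA (142.9 to 198.4 FPKM) but had 8.70 and 9.28 CPM (UMIs scaled to a common library total) in the 10x libraries, against 771 and 666 CPM for Gapdh; in C1 cells Pgk1 was above 1 FPKM in 90.1% of cells.

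Between populations, 31 of the 32 genes passed the filter on low values (above 1 FPKM in at least 2 libraries) and were tested with limma; Eno2 did not pass. Hk3 passed only through Flt3- and total ETP, the populations in which it was high, so its values are given with no test and the counts are over the other 30 genes. Log2 differences below are on the scale of log2(FPKM + 1), with Benjamini-Hochberg adjustment over 12112 genes.

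Glucose transporters, enolase and pyruvate kinase were lower, and Pfkfb3 was higher, in Bcl11b+ DN2a than in Flt3+ ETP, which here stand for the latest and the earliest sorted stage. In that comparison 1 gene rose and 4 fell of 30, while 11.3% of all tested genes were called. The median difference of the 30 was -0.21, against -0.03 for all tested genes. Total ETP, all NEBNext, did not share every direction. Its Eno1 (76.6 and 64.3 FPKM) and Slc2a1 (7.52 and 6.59 FPKM) lay within the range of the NEBNext DN2a values. Its Pkm, at 180.2 and 161.6 FPKM, lay below them. In total ETP Slc2a3 (9.05 and 8.83 FPKM) lay above the NEBNext DN2a values and Pfkfb3 (12.1 and 13.6 FPKM) below them. Slc2a3, the high-affinity glucose transporter (chr6:122727809-122742745, mm10, - strand), had 6.13, 5.40 and 1.70 FPKM in Bcl11b+ DN2a, against 14.2 and 6.64 FPKM in Flt3+ ETP. All 3 DN2a values lay below both ETP values, and the log2 difference was -1.33 ± 0.16 (SE, limma adjusted p = 0.000165). Eno1 (chr4:150237197-150248873, + strand) had 78.3, 55.6 and 123.7 FPKM in Bcl11b+ DN2a, against 160 and 247 FPKM in Flt3+ ETP, again with no overlap, a difference of -1.15 ± 0.19 (SE, limma adjusted p = 0.00197). Within the NEBNext pair of library-number series 1 the log2 difference of Eno1 was -1.02, and within the SMART-Seq pair of series 3 it was -0.99; for Slc2a3 the pairs gave -1.09 and -1.50.

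Slc2a1 (chr4:119108745-119137329, + strand) and Pkm (chr9:59656368-59679375, + strand), both often induced in growing cells, were also lower in Bcl11b+ DN2a by limma but were not called by edgeR on recovered reads (edgeR adjusted p = 0.0881 and 0.122). Slc2a1 had 8.89, 6.18 and 5.21 FPKM in Bcl11b+ DN2a, against 17.004 and 7.79 FPKM in Flt3+ ETP, and the ranges overlapped (-0.87 ± 0.22, SE, limma adjusted p = 0.0266). Pkm had 289, 187.1 and 186.7 FPKM in Bcl11b+ DN2a, against 334 and 376 FPKM in Flt3+ ETP, without overlap (-0.76 ± 0.22, SE, limma adjusted p = 0.0434). Within pairs the Pkm difference was -0.21 in series 1 and -1.01 in series 3.

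Pfkfb3 (chr2:11471431-11553929, - strand), the PFKFB form with the strongest kinase activity, was the 1 gene that rose. It had 16.4, 20.3 and 3.44 FPKM in Bcl11b+ DN2a, against 9.58 and 1.77 FPKM in Flt3+ ETP, so that ranges overlapped across kits while each kit had higher DN2a values. The log2 difference was 0.82 ± 0.20 (SE, limma adjusted p = 0.0209), and the within-pair differences were 0.72 and 0.68. Myeloid markers (14 genes) summed to 42.3, 25.5 and 75.5 FPKM in Bcl11b+ DN2a, against 263 and 356 FPKM in Flt3+ ETP, and erythroid, megakaryocyte and mast cell markers (13 genes) to 582, 419 and 1279 FPKM, against 67.04 and 70.2 FPKM; their part in these differences was not tested. S100a9, Ms4a2 and Ppbp were among the markers at 0 in every Bcl11b+ DN2a library.

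With single libraries left out, Slc2a3 kept its call in all 5 fits. Limma adjusted p-values without Flt3+ ETP replicate 1 were 0.0547 for Eno1, 0.144 for Pfkfb3, 0.053 for Pkm and 0.267 for Slc2a1, and without Flt3+ ETP replicate 2 they were 0.135 for Pfkfb3, 0.368 for Pkm and 0.101 for Slc2a1. Without Bcl11b+ DN2a replicate 2 they were 0.052 for Pfkfb3, 0.0898 for Pkm and 0.0547 for Slc2a1, and without Bcl11b+ DN2a replicate 3 that of Pkm was 0.136. The count of called genes was 2 without Bcl11b+ DN2a replicate 2, where 1158 of 12076 tested genes were called. Fits without a Flt3+ ETP library left 1 library of that population. Eno1 has a near-identical copy, Eno1b, listed at 142.6, 100.5 and 232 FPKM in Bcl11b+ DN2a and 293 and 461.5 FPKM in Flt3+ ETP, so the bulk values of both are uncertain. Gapdh, Aldoa and Pgam1 also have processed copies in the genome, and how reads shared with copies were counted is not given in the sources used here. In the 10x libraries Eno1b was at 0.282 and 0.260 CPM, against 59.5 and 53.9 CPM for Eno1.

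**Figure D3:**
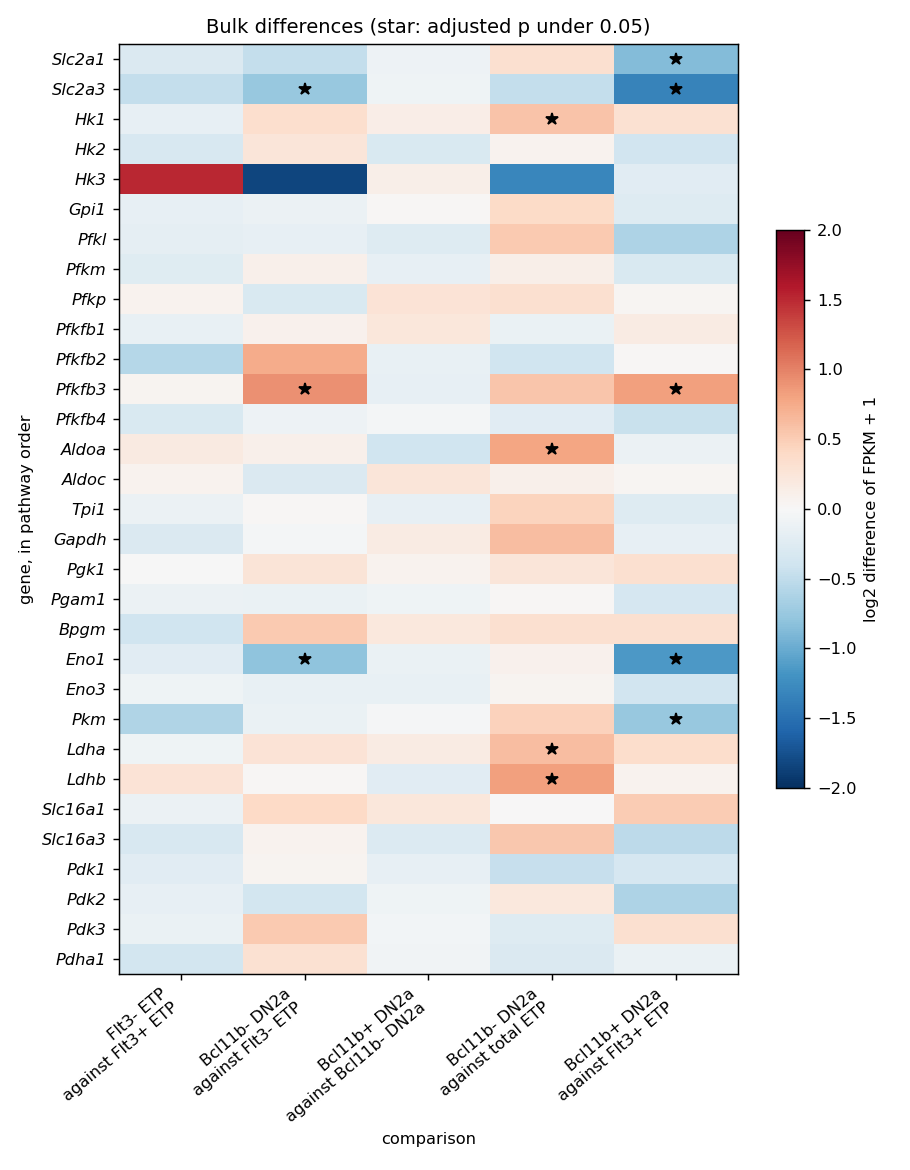
Log2 differences of 31 genes in the 5 bulk comparisons, on the log2(FPKM + 1) scale, coloured by size and with a star at limma adjusted p under 0.05 (Hk3, given with no test, has no star). Slc2a3 and Eno1 are lower in DN2a in both comparisons with a Flt3-sorted ETP population, and Pfkfb3 is higher in both.

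Between Bcl11b- DN2a and Flt3- ETP, on either side of the CD25 gate, Slc2a3 and Eno1 were lower and Pfkfb3 was higher. Of 30 genes 1 rose and 2 fell, while 3.97% of all tested genes were called, and the medians were 0.04 for the 30 and 0.12 for all tested genes. Hk3 (chr13:55005985-55021385, - strand) had 0.219, 0.236 and 0.022 FPKM in Bcl11b- DN2a, against 5.998 and 1.115 FPKM in Flt3- ETP. All DN2a values lay below both ETP values. The myeloid markers, all 14 of which fell in this comparison, summed to 171.3, 176.2 and 244 FPKM in Bcl11b- DN2a, against 1017 and 1880 FPKM in Flt3- ETP, with none at 0 in every library of either population; their part in the Hk3 difference was not tested in bulk RNA.

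Slc2a3 had 6.55, 5.86 and 1.88 FPKM in Bcl11b- DN2a, against 12.1 and 3.55 FPKM in Flt3- ETP (-0.76 ± 0.16, SE, limma adjusted p = 0.0192). Eno1 had 90.1, 60.4 and 128.9 FPKM in Bcl11b- DN2a, against 136.6 and 210.8 FPKM in Flt3- ETP (-0.80 ± 0.19, SE, limma adjusted p = 0.0413). Pfkfb3 had 19.3, 21.2 and 4.13 FPKM in Bcl11b- DN2a, against 7.64 and 2.65 FPKM in Flt3- ETP (0.92 ± 0.20, SE, limma adjusted p = 0.0256). Eno1 values did not overlap between the populations, and those of Slc2a3 and Pfkfb3 overlapped across kits but not within them. Within the series 1 and series 3 pairs, Slc2a3 differed by -0.80 and -0.66, Eno1 by -0.60 and -0.71, and Pfkfb3 by 1.23 and 0.49.

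These calls depended on single libraries. Without Flt3- ETP replicate 1 none of the 3 was called, with limma adjusted p of 0.254 for Slc2a3, 0.435 for Pfkfb3 and 0.442 for Eno1. Without Bcl11b- DN2a replicate 1 the value for Pfkfb3 was 0.0805. Without Bcl11b- DN2a replicate 2 the values were 0.0663 for Slc2a3, 0.0747 for Pfkfb3 and 0.1 for Eno1, and without Bcl11b- DN2a replicate 3 they were 0.0677, 0.0571 and 0.0882. With a Bcl11b- DN2a library left out, the count of called genes, Hk3 included, was at most 3. Those fits called 269 to 325 of all tested genes, against 481 of 12112 with all libraries.

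**Figure D4:**
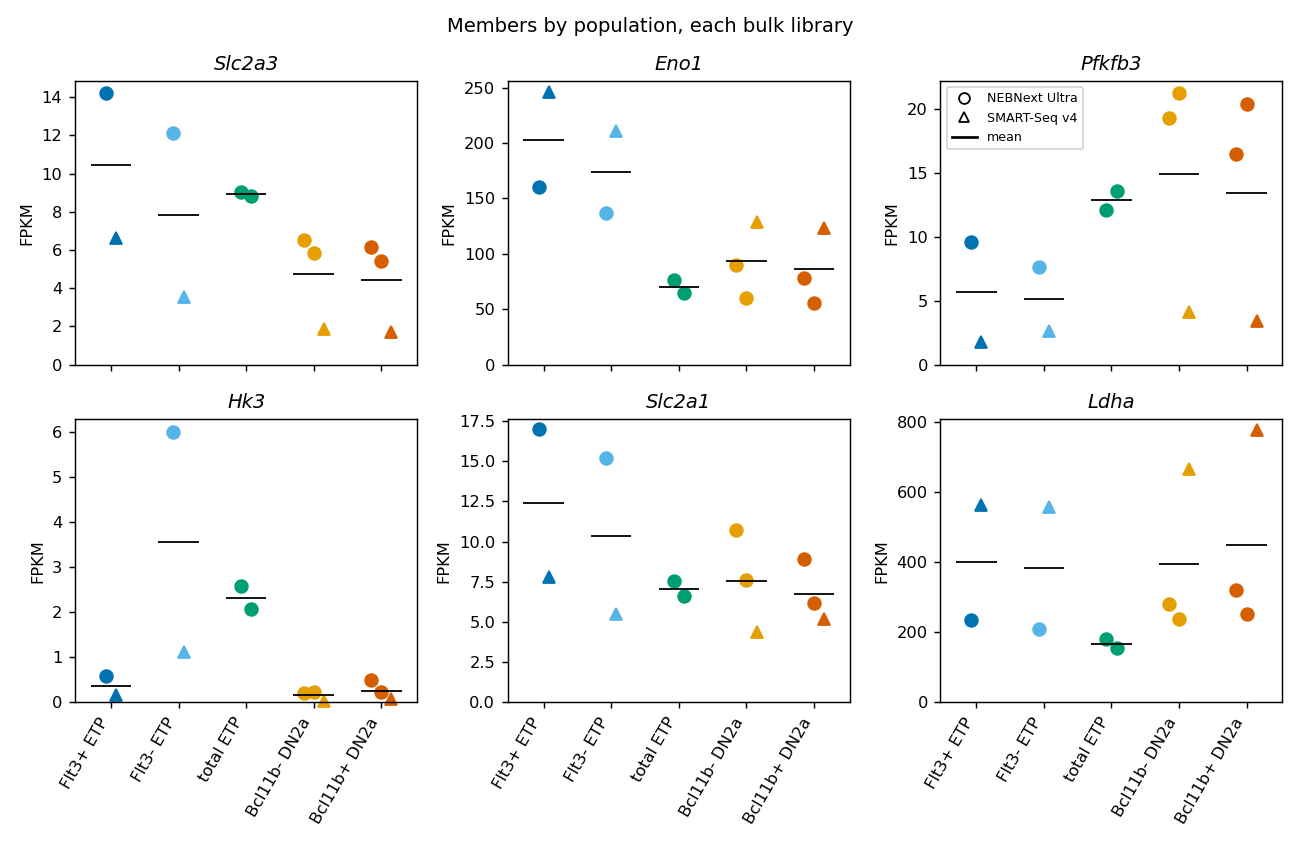
FPKM of selected genes in each bulk library (y axis, from 0) by population (x axis), with separate marks for NEBNext and SMART-Seq v4 libraries. Hk3 is near 0 in both DN2a populations, Pfkfb3 is higher in DN2a than in Flt3-sorted ETP within each kit, and Slc2a3 and Eno1 are lower.

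Against total ETP, Aldoa, Ldha, Ldhb and Hk1 were higher in Bcl11b- DN2a. These were 4 of 30 genes (13.3%), none of the others being called, while 15.6% of all tested genes were called, so the share called was no higher than over all genes. The median difference was 0.23 for the 30, against -0.00 for all tested genes. Aldoa (chr7:126795234-126800447, - strand) had 229, 173.3 and 278 FPKM in Bcl11b- DN2a, against 122.3 and 103.5 FPKM in total ETP (0.79 ± 0.17, SE, limma adjusted p = 0.0157). Ldha (chr7:46845804-46855627, + strand) had 280.1, 238 and 667 FPKM in Bcl11b- DN2a, against 180.3 and 154.9 FPKM in total ETP (0.62 ± 0.14, SE, limma adjusted p = 0.0195). Ldhb (chr6:142490249-142507957, - strand), the heart-type subunit, had 19.3, 15.7 and 28.1 FPKM in Bcl11b- DN2a, against 10.9 and 8.53 FPKM in total ETP (0.82 ± 0.17, SE, limma adjusted p = 0.0127). For all 3 genes every DN2a value was above both total ETP values. Flt3- ETP was also above total ETP, with Aldoa at 181.2 and 273.2 FPKM, Ldha at 210.6 and 558.2 FPKM and Ldhb at 17.9 and 25.6 FPKM. Between Bcl11b- DN2a and Flt3- ETP none of the 4 was called by limma or by edgeR on recovered reads. There the edgeR log2 differences were 0.04 for Aldoa, 0.22 for Ldha, -0.03 for Ldhb and 0.33 for Hk1.

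Hk1 (chr10:62268855-62340421, - strand) had 26.2, 20.99 and 4.58 FPKM in Bcl11b- DN2a, against 15.4 and 15.2 FPKM in total ETP (0.57 ± 0.18, SE, limma adjusted p = 0.0483). The SMART-Seq value lay below total ETP and both NEBNext values above it, and the difference was -0.12 without the kit term. Hk3 had 0.219, 0.236 and 0.022 FPKM in Bcl11b- DN2a, against 2.59 and 2.07 FPKM in total ETP, without overlap, beside myeloid marker sums of 171.3, 176.2 and 244 FPKM, against 529 and 513 FPKM. In series 2, where both populations are NEBNext, the log2 differences were 0.62 for Aldoa, 0.51 for Ldha, 0.65 for Ldhb and 0.43 for Hk1.

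With single libraries left out, the limma adjusted p-values that missed the threshold were as follows. Without total ETP replicate 1 they were 0.0558 for Aldoa, 0.152 for Hk1 and 0.0607 for Ldha. Without total ETP replicate 2 they were 0.203 for Aldoa, 0.295 for Hk1, 0.247 for Ldha and 0.188 for Ldhb. Without Bcl11b- DN2a replicate 1 they were 0.0907 for Aldoa, 0.215 for Hk1, 0.108 for Ldha and 0.0742 for Ldhb, and without Bcl11b- DN2a replicate 3 that of Hk1 was 0.0912. The count of called genes, Hk3 included, was 0, 0 and 1 without total ETP replicate 2, Bcl11b- DN2a replicate 1 and total ETP replicate 1, and 9 without Bcl11b- DN2a replicate 2. This comparison shares its Bcl11b- DN2a libraries with the one against Flt3- ETP.

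The 2 remaining contrasts called no gene of the 30 with limma. Between Bcl11b+ DN2a and Bcl11b- DN2a, across the first appearance of Bcl11b, 2.79% of all tested genes were called and 1 of the 30 had an unadjusted p under 0.05; edgeR on recovered reads called 0, with 1 at an unadjusted p under 0.05. Aldoa came nearest, with 167.8, 121.99 and 236 FPKM in Bcl11b+ DN2a, against 229, 173.3 and 278 FPKM in Bcl11b- DN2a. It was lower in Bcl11b+ DN2a in each of the 3 library-number series, by -0.45, -0.50 and -0.24 on the log2 scale. With the series as a block it was the 1 gene called (-0.39 ± 0.10, SE, limma adjusted p = 0.0322), while 5.63% of all tested genes were called. Between Flt3- ETP and Flt3+ ETP 0.685% of all tested genes were called and 3 of the 30 had an unadjusted p under 0.05, and edgeR on recovered reads called 0, with 0 at an unadjusted p under 0.05. Without Flt3- ETP replicate 2, which left 1 Flt3- ETP library, the median difference over all tested genes was -0.27, against -0.15 with all libraries. Hk3 had 5.998 and 1.115 FPKM in Flt3- ETP, against 0.576 and 0.160 FPKM in Flt3+ ETP, beside myeloid sums of 1017 and 1880 FPKM, against 263 and 356 FPKM.

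None of Gpi1, Tpi1, Gapdh, Pgk1 and Pgam1 was called by limma in any of the 5 comparisons. Pgk1 had the narrowest range of these 5, with 193.98, 198.4 and 196.2 FPKM in Bcl11b+ DN2a and 192.3, 183.2 and 185.4 FPKM in Bcl11b- DN2a, against 152.5 and 157.5 FPKM in Flt3- ETP, 170.96 and 142.9 FPKM in Flt3+ ETP and 161.4 and 159.3 FPKM in total ETP. Every DN2a value of Pgk1 was above every ETP value, and edgeR on recovered reads called it in Bcl11b+ DN2a against Flt3+ ETP (log2 difference 0.46, edgeR adjusted p = 0.04005). Slc16a1 (chr3:104638664-104658462, + strand) had 17.6, 21.8 and 37.98 FPKM in Bcl11b+ DN2a and 15.6, 19.1 and 29.7 FPKM in Bcl11b- DN2a, against 11.8 to 29.9 FPKM in the 6 ETP libraries. It was higher in Bcl11b+ DN2a than in Bcl11b- DN2a in all 3 series (0.16, 0.18 and 0.34 on the log2 scale) without passing the test. Against Flt3+ ETP, limma did not call Slc16a1 in Bcl11b+ DN2a and edgeR on recovered reads did (0.67, edgeR adjusted p = 0.0243). The 7 remaining isozymes with low levels (Pfkm, Pfkp, Pfkfb1, Pfkfb2, Pfkfb4, Aldoc and Eno3) stayed under 15 FPKM in every library and none was called by limma over the 12 libraries. Pfkl had 35.4, 23.9 and 17.8 FPKM in Bcl11b+ DN2a and 41.7, 30.0 and 20.98 FPKM in Bcl11b- DN2a, against 36.8 and 26.5 FPKM in Flt3- ETP, 41.8 and 30.4 FPKM in Flt3+ ETP and 24.3 and 22.6 FPKM in total ETP, with overlap throughout. Hk2 (1.09 to 9.44 FPKM over the 12 libraries), Bpgm (5.11 to 11.5 FPKM), Pdk1 (13.1 to 28.3 FPKM), Pdk2 (4.74 to 10.3 FPKM), Pdk3 (8.70 to 58.3 FPKM), Pdha1 (41.9 to 76.1 FPKM) and Slc16a3 (0.188 to 2.22 FPKM) were not called in that fit either. With NEBNext libraries only, where Flt3- ETP replicate 1 alone is left of its population, Pfkfb2 was higher by 1.29 in Bcl11b- DN2a than in Flt3- ETP. Bpgm was higher by 0.74 in that fit.

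In the 10x data, stages were set by transcripts within the sorted cells, after thinning each cell to 4000 UMIs: Flt3+ Il2ra- (4.86% and 5.26% of the kept cells of libraries 1 and 2), Flt3- Il2ra- (2244 and 3392 cells), Il2ra+ Bcl11b- (1266 and 1720 cells) and Il2ra+ Bcl11b+ (665 and 1027 cells). The 2 libraries held 5006 and 8867 barcodes, of which 4628 and 6978 were kept, with median depths of 8739 and 6730.5 UMIs per cell; 57 barcodes occurred in both. Counts were summed per library and class and compared with edgeR's quasi-likelihood test, with class and library as terms and Benjamini-Hochberg adjustment. Each class had 1 sum per library, so the p-values rest on 2 libraries and on a spread shared over genes. They do not measure the spread among mice. The edgeR SE is the log2 difference divided by the square root of the test's F statistic. Of the 32 genes 29 had enough counts to be tested (not Eno2, Hk3 and Slc16a3).

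Between Il2ra+ Bcl11b- and Flt3+ Il2ra- cells, 5 genes rose and 6 fell of 29, while 17% of all tested genes were called; the medians were -0.00 for the 29 and 0.00 for all. Pfkfb3 had 17.4 and 21.8 CPM in Il2ra+ Bcl11b- cells, against 8.47 and 11.8 CPM in Flt3+ Il2ra- cells (log2 difference 0.87 ± 0.19, SE, edgeR adjusted p = 0.000837). Slc16a1 had 23.5 and 20.8 CPM in Il2ra+ Bcl11b- cells, against 15.1 and 11.8 CPM in Flt3+ Il2ra- cells (0.66 ± 0.18, SE, edgeR adjusted p = 0.00626). Bpgm, which makes and removes 2,3-bisphosphoglycerate, had 20.8 and 24.9 CPM, against 13.2 and 17.7 CPM (0.49 ± 0.17, SE, edgeR adjusted p = 0.0371). For each of these 3 genes both Il2ra+ sums were above both Flt3+ sums.

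Aldoa and Ldha rose less, by 0.22 ± 0.06 (SE, edgeR adjusted p = 0.00468) and 0.19 ± 0.06 (SE, edgeR adjusted p = 0.0186). Eno1 fell to 49.7 and 49.9 CPM in Il2ra+ Bcl11b- cells, against 66.8 and 61.1 CPM in Flt3+ Il2ra- cells (-0.43 ± 0.10, SE, edgeR adjusted p = 0.00155). Gpi1 had 202.5 and 210 CPM, against 265 and 250 CPM (-0.39 ± 0.06, SE, edgeR adjusted p = 1.45e-06), and Pdk1 49.7 and 51.3 CPM, against 59.3 and 66.6 CPM (-0.39 ± 0.10, SE, edgeR adjusted p = 0.00251). Pgam1, Pkm and Gapdh fell by 0.22, 0.20 and 0.15 on the log2 scale. The 11 called genes had the same sign in both libraries, and DESeq2 called 8 of them (not Bpgm, Ldha and Pgam1). Slc2a3, which fell in bulk RNA, had 5.4 and 6.5 CPM in Il2ra+ Bcl11b- cells, against 7.5 and 7.1 CPM in Flt3+ Il2ra- cells, and was not called.

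Flt3- Il2ra- cells, 48.5% and 48.6% of the kept cells, lay between these classes for Pfkfb3 (12.1 and 15.4 CPM) and Slc16a1 (18.99 and 16.9 CPM). They stood with Flt3+ Il2ra- cells for Eno1 (66.9 and 58.2 CPM). Their myeloid markers summed to 490 and 428 CPM. A cell with no thinned UMI of a gate gene may still express it, so this class can mix stages, which was not tested. Erythroid, megakaryocyte and mast cell markers summed to 1328 and 843 CPM in Il2ra+ Bcl11b- cells, against 138.4 and 103.3 CPM in Flt3+ Il2ra- cells, and myeloid markers to 169.2 and 166.3 CPM, against 250 and 337 CPM; their part in these differences was not tested. Among cells with no thinned UMI of 24 G2/M genes, 2 of the 11 calls held, those of Pdk1 (edgeR adjusted p = 0.0162) and Gpi1 (0.0102). There Pfkfb3 differed by 0.63 (edgeR adjusted p = 0.248), Slc16a1 by 0.71 (0.261) and Eno1 by -0.43 (0.107). Full counts of all such cells still held G2/M transcripts, at 69.5 and 59.1 CPM, against 1016 and 916 CPM over all kept cells.

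Between Il2ra+ Bcl11b+ and Il2ra+ Bcl11b- cells 4 genes rose and 3 fell of 29, while 15.6% of all tested genes were called; the medians were -0.07 and -0.00. Slc16a1 had 35.002 and 31.6 CPM in Bcl11b+ cells, against 23.5 and 20.8 CPM in Bcl11b- cells (0.56 ± 0.09, SE, edgeR adjusted p = 1.72e-05). Gapdh had 852 and 723 CPM, against 722 and 630 CPM (0.19 ± 0.04, SE, edgeR adjusted p = 0.000188), and Ldha 268 and 249 CPM, against 246 and 218.1 CPM (0.13 ± 0.04, SE, edgeR adjusted p = 0.0337). Pfkp, the platelet-type phosphofructokinase subunit, rose by 0.66 ± 0.23 at low counts (8.3 and 4.8 CPM, against 4.9 and 3.2 CPM; edgeR adjusted p = 0.0395). Aldoa fell to 248 and 233 CPM in Bcl11b+ cells, against 316 and 286 CPM in Bcl11b- cells (-0.35 ± 0.05, SE, edgeR adjusted p = 7.54e-08), the direction its bulk values had in all 3 series.

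Tpi1 and Gpi1 fell by 0.19 and 0.14 on the log2 scale (edgeR adjusted p = 0.00206 and 0.0418). DESeq2 called 4 of the 7, and not Ldha, Pfkp and Gpi1. Slc16a1 was higher in both steps, with 15.1 and 11.8 CPM in Flt3+ Il2ra- cells at the start of the series and 35.002 and 31.6 CPM in Il2ra+ Bcl11b+ cells at its end. The share of cells with at least 10 thinned UMIs of the G2/M genes was 15.04% and 10.8% in Il2ra+ Bcl11b+ cells, against 9.24% and 7.56% in Il2ra+ Bcl11b- cells. Among cells with no thinned G2/M UMI the differences of Slc16a1 (0.57, edgeR adjusted p = 0.0344), Gapdh (0.23, 0.000175) and Aldoa (-0.47, 2.32e-08) kept their calls and the other 4 did not. The bulk comparisons and these 10x comparisons rest on different mice and sorts, and the 2 gate comparisons share the Il2ra+ Bcl11b- cells.

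**Figure D5:**
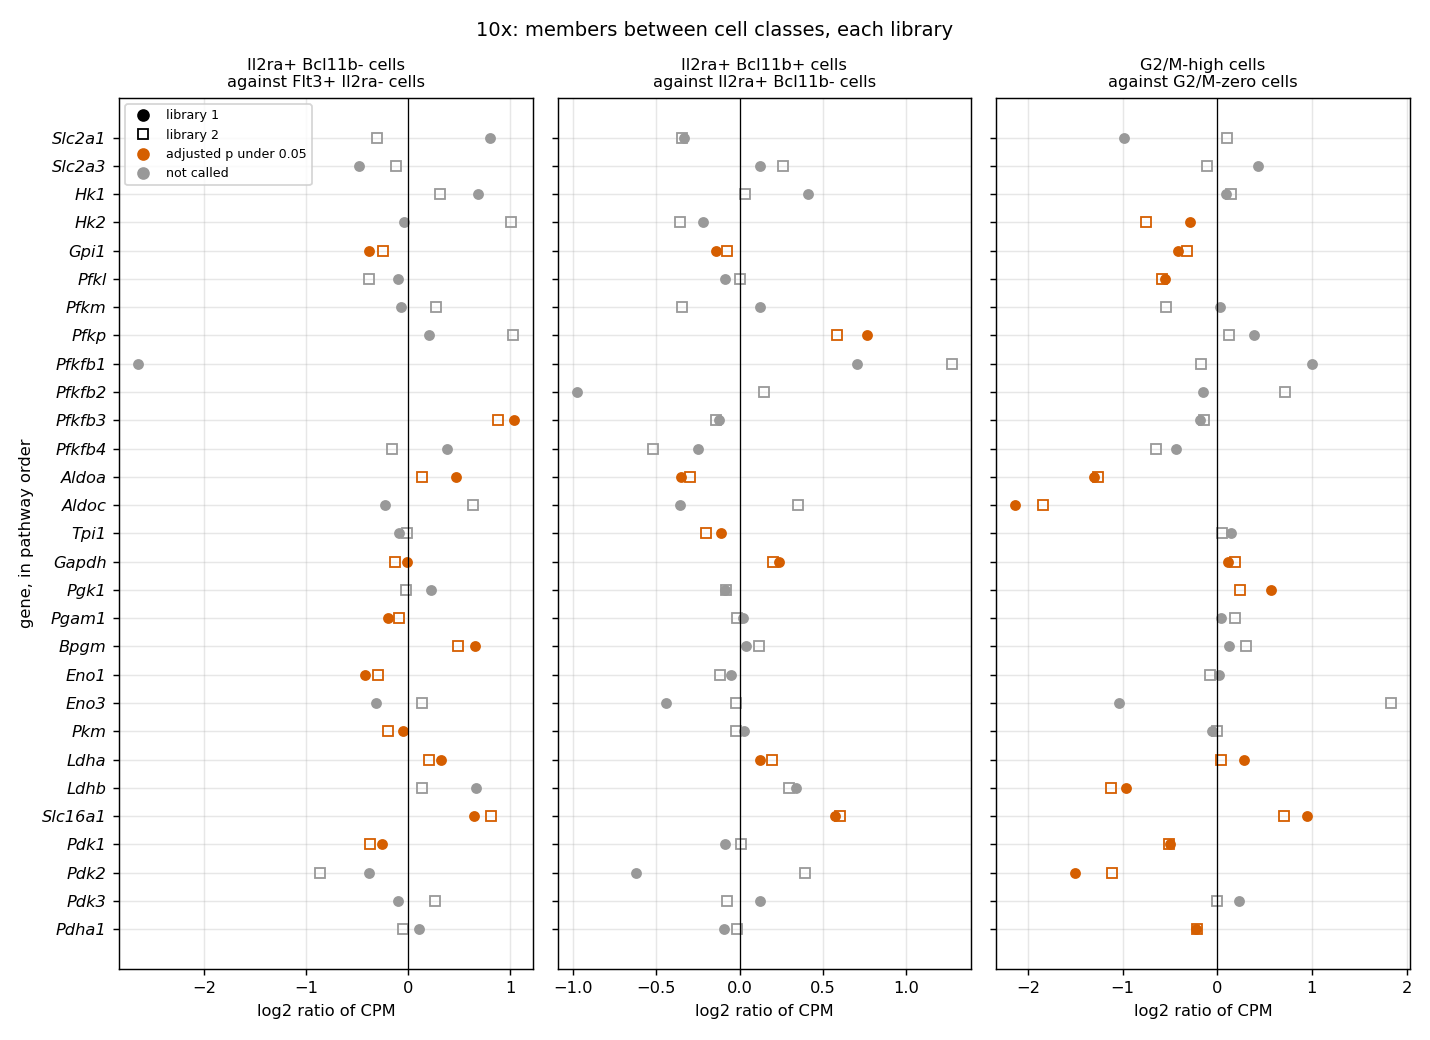
Log2 ratio of CPM per gene (rows) in each 10x library (filled circles for library 1, open squares for library 2) for the 3 comparisons of cell classes (panels), with genes called by edgeR in orange. Slc16a1 lies to the right of 0 in all 3 panels, and Aldoa lies furthest left of the abundant genes in the G2/M panel.

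Cells were also compared by their transcripts of G2/M genes. Cells with at least 10 thinned UMIs over the 24 G2/M genes (501 and 645) were set against cells with none (1923 and 2776), and 28.7% and 29.6% of the G2/M-high cells lay within 2 UMIs of the threshold. S-phase transcripts were present in both classes, as 24 S-phase genes summed to 1912 and 1953 CPM in G2/M-high cells, against 1372 and 1376 CPM in G2/M-zero cells. Of 29 genes 4 rose and 9 fell (44.8%), near the 43.7% of all tested genes that were called; both medians were -0.01. Slc16a1 had 33.2 and 24.8 CPM in G2/M-high cells, against 17.2 and 15.2 CPM in G2/M-zero cells (0.85 ± 0.12, SE, edgeR adjusted p = 2.14e-12). Pgk1, Ldha and Gapdh rose by 0.42 ± 0.17, 0.18 ± 0.05 and 0.17 ± 0.03 (SE, edgeR adjusted p = 0.0299, 0.00122 and 7.63e-06). Aldoa fell to 142.5 and 140.1 CPM in G2/M-high cells, against 351 and 335 CPM in G2/M-zero cells (-1.26 ± 0.05, SE, edgeR adjusted p = 5.41e-136).

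Aldoc, the brain-type aldolase, fell with it, to 1.6 and 1.2 CPM in G2/M-high cells, against 6.8 and 4.3 CPM in G2/M-zero cells (-1.99 ± 0.33, SE, edgeR adjusted p = 1.23e-08). Ldhb had 11.95 and 9.6 CPM, against 23.3 and 21.01 CPM (-1.02 ± 0.14, SE, edgeR adjusted p = 4.9e-12), the opposite direction to Ldha by edgeR, while DESeq2 did not call Ldha (0.19, DESeq2 adjusted p = 0.192). Pdk2 fell by 1.28 and Pdk1 by 0.49 on the log2 scale, while Pdk3, at 28.4 and 23.1 CPM against 24.2 and 23.1 CPM, was not called. Pfkl, Hk2, Gpi1 and Pdha1 fell by 0.55, 0.46, 0.35 and 0.20. Hk1 was not called, at 18.3 and 20.2 CPM in G2/M-high cells, against 17.1 and 18.2 CPM in G2/M-zero cells.

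The 13 called genes had the same sign in both libraries. G2/M-high cells were deeper, with median UMIs per cell of 12667 and 8831, against 7213 and 5764, and had lower sums of erythroid, megakaryocyte and mast cell markers (508 and 330 CPM, against 1035 and 678 CPM) and of myeloid markers (135.05 and 186.4 CPM, against 304 and 269 CPM); their part in the differences was not tested. DESeq2 called 8 of the 13, and not Hk2, Ldha, Pdha1, Pfkl and Pgk1.

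In the C1 data, 5 cells with fewer than 1000 genes above 1 FPKM were left out; the others had a median of 4663 genes and were described without tests. Gapdh was above 1 FPKM in all of them, Ldha in 98.2% (95% exact binomial interval 95.5% to 99.5%) and Eno1 in 93.2% (89.1% to 96.2%). The regulatory and uptake genes were found in fewer cells: Hk1 in 34.7% (28.4% to 41.3%), Hk2 in 23.9% (18.4% to 30.0%), Slc2a1 in 22.5% (17.2% to 28.6%), Pfkfb3 in 22.1% (16.8% to 28.1%) and Slc2a3 in 11.7% (7.8% to 16.7%). Intervals cover counting of cells only.

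Lactate dehydrogenase subunits were mostly found together or as Ldha alone: 51.8% of cells had both, 46.4% had Ldha alone, 1 cell had Ldhb alone and 3 had neither. Hexokinases were mostly found singly or not at all, with Hk1 alone in 54 cells, Hk2 alone in 26, at least 2 of the 3 in 27 and none in 51.8% of cells. By transcript gate, the median of Eno1 was 70.9 FPKM in 94 Il2ra+ Bcl11b- cells and 75.5 FPKM in 29 Il2ra+ Bcl11b+ cells, against 150 FPKM in 33 Flt3- Il2ra- cells and 109.5 FPKM in 65 Flt3+ Il2ra- cells. Pfkfb3 was found in 27.7% (18.9% to 37.8%) of Il2ra+ Bcl11b- cells, against 15.4% (7.6% to 26.5%) of Flt3+ Il2ra- cells, and Bpgm in 40.4% (30.4% to 51.0%), against 16.9% (8.8% to 28.3%). These intervals treat cells of 1 sample as counts and do not test the classes against each other. The names of the C1 cells carry several library numbers, and the classes were not compared within them. The median number of genes per cell was 4507 in Il2ra+ Bcl11b- cells, against 4705 in Flt3+ Il2ra- cells. Ldha had a median of 473 FPKM in Il2ra+ Bcl11b+ cells, against 180.6 FPKM in Il2ra+ Bcl11b- cells, and the median number of genes was 5316, against 4507.

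Single cells also placed the Hk3 transcript. Library 1 held 26 Hk3 UMIs and library 2 held 11, of which 18 (69.2%) and 8 (72.7%) lay in the 21 and 18 cells with at least 5 UMIs of Elane, the neutrophil elastase gene of granulocyte precursors. Those cells were 0.454% and 0.258% of kept cells and held 0.854% and 0.399% of all UMIs, and they held 1.24% and 0.64% of Hk1 UMIs and 2.05% and 1.09% of Hk2 UMIs. In the C1 data, 6 cells had Hk3 above 1 FPKM and all 6 also had Elane, which was found in 15 cells (6.76%). The 5-UMI limit was chosen after the values were seen.

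Genes around the pathway were read from lists of named genes. Of 14 tested genes of other glycolysis and gluconeogenesis steps, 5 were called between Bcl11b+ DN2a and Flt3+ ETP by limma, 2 higher and 3 lower, with a list median of 0.03, while 11.3% of all tested genes were called. Emb (embigin, a partner protein of monocarboxylate transporters) fell by 1.73 (SE 0.16, limma adjusted p = 3.06e-05) on the log2 scale, and Pck2 (mitochondrial phosphoenolpyruvate carboxykinase) fell too (-1.02), while Pgam2, the muscle-type mutase, rose by 1.25 and Pgm2 by 0.68. Emb also fell by 1.22 between Bcl11b- DN2a and Flt3- ETP and by 1.85 between Bcl11b- DN2a and total ETP, the 1 call of the list in each. In the 10x data Emb fell by 1.40 (SE 0.09, edgeR adjusted p = 3.63e-16) and Pck2 by 0.97 between Il2ra+ Bcl11b- and Flt3+ Il2ra- cells, where Pgam2 rose by 3.15.

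Among 13 tested regulators of glycolytic genes, Txnip, an arrestin-family brake on glucose uptake, fell by 1.35 between Bcl11b+ DN2a and Flt3+ ETP (limma adjusted p = 3.67e-05), by 1.05 between Bcl11b- DN2a and Flt3- ETP and by 0.84 in the first 10x comparison. Mycn, a Myc-family transcription factor, fell by 0.69 between Bcl11b+ and Bcl11b- DN2a (limma adjusted p = 0.0365), the only call of this list there, and by 0.70 between the matching 10x classes (edgeR adjusted p = 2.5e-14). Myc fell by 0.68 between Bcl11b+ DN2a and Flt3+ ETP (limma adjusted p = 0.00839). In G2/M-high cells Mycn fell by 0.80 and Myc by 0.70 relative to G2/M-zero cells.

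Of 15 tested hypoxia targets outside glycolysis, 1 rose and 3 fell between Bcl11b+ DN2a and Flt3+ ETP: Vegfa rose by 1.18, and Ndrg1, Egln1 and Bnip3 fell by 0.76, 0.80 and 0.89, while 11.3% of all tested genes were called; the list median was -0.21. Against total ETP, 1 rose and 5 fell in Bcl11b- DN2a, with Vegfa again the one that rose (1.21), a list median of -0.29 and 15.6% of all tested genes called. Of 8 pentose phosphate genes 3 rose between Bcl11b- DN2a and total ETP, Pgls by 1.48, Taldo1 by 0.78 and Tkt by 0.69, with a list median of 0.34 and 15.6% of all tested genes called, and none was called by limma in the other 4 bulk comparisons. Of 20 tricarboxylic acid cycle genes, Ogdh rose by 1.04 between Bcl11b- DN2a and Flt3- ETP, and Mdh2 (0.58) and Idh2 (0.51) rose between Bcl11b- DN2a and total ETP, 2 comparisons in which 3.97% and 15.6% of all tested genes were called. The 10 tested genes of pyruvate dehydrogenase and the pyruvate carriers gave 0 calls by limma in all 5 bulk comparisons, with 0 to 2 at an unadjusted p under 0.05.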

How the data were processed

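Bulk FPKM values were made by the authors with HOMER over exons of condensed RefSeq genes (mm10), per the file headers; STAR 2.4.0, RSEM 1.2.25, SAMtools, HOMER and edgeR 3.6.8 are named in the submitters' processing notes. C1 FPKM values are per gene, and the deposited 10x UMI counts came from Cell Ranger 2.0, per the submitters' processing notes. The 32 genes and all gene lists were chosen with earlier results of these data known.

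Bulk values were tested as log2(FPKM + 1) with limma 3.58.1 (R 4.3.3) in 1 fit of 12 libraries with population and kit as terms, over 12112 of 24506 genes above 1 FPKM in at least 2 libraries, two-sided, with calls at 0.05 after Benjamini-Hochberg adjustment. FPKM and gene length gave whole reads for 100% of values within 0.1 in every library, and edgeR 4.0.16 on those reads called 35 to 1688 genes per comparison as an alternative. Library numbers pair the DN2a populations: deviations from the group means, which include the kit, correlated by 0.912 to 0.980 over 3 pairs.

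10x cells with at least 1000 genes, under 10% mitochondrial UMIs and at least 4000 UMIs were kept; 250 and 1456 cells that passed the other filters were left out as shallower than 4000 UMIs. No doublet caller was run. Cells were classed on thinned counts (1 UMI of a gate gene; seed 1), and full counts were summed per library and class. Il2ra- Bcl11b+ cells (228 and 472) were in no class. DESeq2 1.42.0 was an alternative. Fits were tested on simulated data. Genes named are the listed ones and, of other lists, up to 4 per comparison by smallest adjusted p.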

Additional observations from a re-analysis of the deposited data

How the results depend on the processing

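The count of called genes was compared under each alternative with its main value. Bulk counts here, and the tally of single-gene results below, include Hk3, whose test was set aside above. Without Hk3 the main counts for Bcl11b- DN2a against Flt3- ETP and against total ETP were 3 and 4 of 30. With edgeR on recovered reads they were 3 and 5 of 31, and the other alternatives were not recounted. For Bcl11b+ DN2a against Flt3+ ETP (5 of 31) it was 2 with no filter on low values, 0 without the kit term, 1 with NEBNext libraries only, 10 with the library-number series as a replicate block, and 1 to 7 with single libraries left out. For Bcl11b- DN2a against Flt3- ETP (4) it was 2 with no filter and 0 without the kit term. Over all tested genes these fits called 372 of 19784 and 35 of 12112. The main fit called 481 of 12112. With a Bcl11b- DN2a library left out the count was at most 3, in fits that called 269 to 325 of all tested genes. For Bcl11b- DN2a against total ETP (5) it was 1 with no filter, 0 without the kit term and 1 with NEBNext libraries only. Over all tested genes these fits called 799 of 19784, 55 of 12112 and 333 of 11897. The main fit called 1895 of 12112. The count was 0 to 9 with a Bcl11b- DN2a library left out, in fits that called 373 to 2889 of all tested genes. Hk1 reversed to -0.12 without the kit term. For Bcl11b+ against Bcl11b- DN2a (0) it was 1 with the replicate block and 0 in all 6 fits with single libraries left out. The block called 682 of 12112 tested genes, and the other 6 fits called 160 to 255. For Flt3- against Flt3+ ETP (0) it was 1 each with pseudocount 0.1, the replicate block and edgeR on recovered reads, the edgeR call being Hk3. Over all tested genes these fits called 51 of 12112, 588 of 12112 and 35 of 15293. Leaving out a library of this comparison left 1 library of a population. Where a fit left 1 library of a population, that library was assumed to vary like the others. For the 10x comparisons, dropping the library term (no replicate block) gave 3 in place of 11, 0 in place of 7 and 8 in place of 13. Over all tested genes it gave 828 in place of 1943, 562 in place of 1777 and 2771 in place of 4887. DESeq2 gave 4 in place of 7 and 8 in place of 13, with 770 of 11825 and 1669 of 11294 tested genes called. G2/M-zero cells alone, which are fewer, gave 2 in place of 11 and 3 in place of 7. They gave 782 and 890 of 10233 over all tested genes. Leaving out a 10x library leaves no residual degrees of freedom, so no such fit was made. Outside the fits with libraries left out, 61 single-gene bulk results kept their call, 36 lost it and 1 reversed. Other causes were not tested. Groups of 2 libraries limit what bulk RNA can show, and Hk3, Eno2 and Slc16a3 are too shallow for a 10x test.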
